A study of Arabidopsis thaliana with 24 samples.

Results

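Type-A response regulators are the small feedback proteins of cytokinin signalling in Arabidopsis thaliana. The 10 genes of the family, ARR3 to ARR9 and ARR15 to ARR17, were looked up in the deposited expression table by their gene identifiers. Of these 10, 8 had values in every library: ARR4, ARR5, ARR6, ARR7, ARR8, ARR9, ARR15 and ARR16. ARR3 and ARR17 carried no number in any library and were not analysed here. Over all 37336 genes listed, 17952 had values.

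The genes lie on 4 chromosomes, given here in TAIR10.1 coordinates. ARR4 (AT1G10470, chr1:3441988-3444360, minus strand), ARR7 (AT1G19050, chr1:6577833-6579314, minus strand) and ARR15 (AT1G74890, chr1:28131447-28133025, minus strand) are on chromosome 1, as is ARR3 (AT1G59940). ARR8 (AT2G41310, chr2:17221840-17224880, plus strand) and ARR16 (AT2G40670, chr2:16969673-16972113, plus strand) are on chromosome 2. ARR5 (AT3G48100, chr3:17758427-17760950, minus strand) and ARR9 (AT3G57040, chr3:21109059-21111567, plus strand) are on chromosome 3, as is ARR17 (AT3G56380), and ARR6 (AT5G62920, chr5:25252007-25254318, minus strand) is on chromosome 5.

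After 5 h at 4 °C in the ZT27 set, ARR6, ARR8, ARR9 and ARR4 fell in wild type while ARR7 rose. After 3 h at 4 °C in the ZT45 set, ARR7 fell as well, together with ARR4, ARR6, ARR8, ARR9 and ARR16. The response of ARR7 therefore differed in direction between the 2 time sets, in both genotypes. ARR15 did not pass the test in any of the 4 chilling comparisons with all libraries. Without 1 chilled mutant library of the ZT27 set, it passed as a rise in the mutant at ZT27. Between the genotypes there was 1 difference in the family that passed, a lower ARR5 in the chilled ZT27 set, and that call was lost without any 1 of 4 libraries.

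The study compared wild-type Col-0 (WT) with the SIG5 mutant sig5-3, the insertion line SALK_141383C. SIG5 is a sigma factor, made from a nuclear gene, that guides the bacterial-type RNA polymerase of the chloroplast to its promoters. All seedlings grew for 11 days at 19 °C with a 12 h photoperiod and then spent 24 h in continuous light. One set was then kept at 19 °C or moved to 4 °C from ZT27 for 5 h, the other from ZT45 for 3 h, where ZT counts hours from dawn. This gave 8 groups of 3 samples of 10 pooled seedlings each, 24 libraries of polyadenylated RNA in all. The replicates were described as independent. With this photoperiod the start at ZT27 falls in the subjective day and the start at ZT45 in the subjective night. Both name the start of the treatment, also for the 19 °C groups, and it ended 5 h or 3 h later. The start and the length of the cold differed together, so their parts cannot be told apart. The labels name no cytokinin treatment, sig5-3 is 1 insertion line, and whole seedlings mix all organs. In such bulk samples fewer cells of a type and less RNA per cell cannot be told apart.

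Cytokinins bind histidine kinase receptors of the AHK family, phosphate passes through the AHP proteins to response regulators in the nucleus, and type-B regulators then switch on target genes. Among the fastest of these targets are the type-A genes, whose products hold a receiver domain but no DNA-binding domain and dampen the signal. The family falls into pairs of close relatives: ARR3 with ARR4, ARR5 with ARR6, ARR7 with ARR15, ARR8 with ARR9, and ARR16 with ARR17. Cold induction of ARR5, ARR6, ARR7 and ARR15 in Arabidopsis seedlings is known from earlier work, as are roles of type-A regulators in freezing tolerance, in the shoot meristem and in the setting of the circadian period.

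Because ARR7 and the group of ARR6, ARR8 and ARR9 moved in opposite directions after chilling at ZT27, the 250 bases before the transcript start of these 4 genes are shown. They were read from the RefSeq annotation and genome of TAIR10.1, on the strand of the gene. ARR6 lies on the minus strand with its promoter at chr5:25254319-25254568, ARR7 on the minus strand at chr1:6579315-6579564, ARR8 on the plus strand at chr2:17221590-17221839 and ARR9 on the plus strand at chr3:21108809-21109058. Capitals mark AGATT, a core bound by type-B regulators, and CCGAC, the core of the C-repeat bound by CBF cold factors, on either strand, where AATCT and GTCGG are their reverse complements.
ARR6: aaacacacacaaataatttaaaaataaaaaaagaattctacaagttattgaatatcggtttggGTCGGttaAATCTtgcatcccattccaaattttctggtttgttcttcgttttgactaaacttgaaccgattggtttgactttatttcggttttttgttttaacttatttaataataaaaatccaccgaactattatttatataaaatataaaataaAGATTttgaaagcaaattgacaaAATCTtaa
ARR7: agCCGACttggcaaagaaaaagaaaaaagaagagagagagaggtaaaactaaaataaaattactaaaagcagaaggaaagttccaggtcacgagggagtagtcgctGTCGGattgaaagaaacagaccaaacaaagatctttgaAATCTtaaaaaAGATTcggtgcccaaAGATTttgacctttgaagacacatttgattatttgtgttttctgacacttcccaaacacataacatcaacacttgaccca
ARR8: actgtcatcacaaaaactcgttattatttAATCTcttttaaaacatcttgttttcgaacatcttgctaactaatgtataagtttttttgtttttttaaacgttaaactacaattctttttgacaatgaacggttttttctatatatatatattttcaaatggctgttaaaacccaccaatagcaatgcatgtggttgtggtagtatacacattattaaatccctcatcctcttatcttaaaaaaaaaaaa
ARR9: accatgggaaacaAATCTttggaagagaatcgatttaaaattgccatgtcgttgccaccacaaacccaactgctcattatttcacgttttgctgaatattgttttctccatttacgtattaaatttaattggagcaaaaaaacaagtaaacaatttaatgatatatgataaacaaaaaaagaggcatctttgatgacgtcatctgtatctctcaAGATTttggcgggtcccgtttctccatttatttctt

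The core AGATT was found 3 times in ARR6, 3 times in ARR7, 1 time in ARR8 and 2 times in ARR9, and 62.5% of the 17794 promoters scanned in the same way held it. CCGAC occurred 2 times in ARR7 and 1 time in ARR6, against 13.05% of all promoters with a match. Of the 8 members, 6 held AGATT and 2 held CCGAC. The evening element AAATATCT, the CCA1 binding site AAAAATCT, the G-box CACGTG and the longer type-B site AGATACG had no match in the windows of the 8 members, and 5.075%, 6.811%, 7.368% and 1.675% of all promoters held them in that order. A match to AAAAATCT always holds the AGATT core on its other strand, and ARR4 and ARR5 held neither AGATT nor CCGAC. Such matches describe the windows and name no bound site.

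The deposited values are normalized read abundances per gene, and their scaling was not given in the sources used. A scaling per library without a division by length was inferred, as 88.9% to 91.4% of values under 30 were multiples of a common step. Totals per library were 790711 to 1092052, and the reads behind them were estimated at 21275995 to 36441486. From the steps between low values, the members were covered by 13 to 2435 estimated reads per library, with ARR5, ARR15 and ARR16 lowest. SIG5 itself, the check of the genotype, was lower in each sig5-3 library than in any WT library of its condition, at 0.762 to 2.03 against 7.32 to 10.1 at 19 °C and 17.2 to 23.4 against 89.3 to 96.6 at 4 °C in the ZT27 set, and at 8.49 to 10.2 against 41.4 to 50.6 and 26.1 to 37.2 against 136 to 150 in the ZT45 set. One library lay far from its group: replicate 1 of chilled sig5-3 from the ZT27 set had a root mean square log2 deviation of 0.263, where the other 23 had 0.0819 to 0.17. It is called the divergent library here, and results that rest on it are given with and without it. All 5 leaf markers had values, with summed levels of 35486 to 70049, beside 5 of 11 root markers at 36.8 to 73.9 and 2 of 4 shoot meristem markers at 8.99 to 14.6. The stem cell markers WUS and CLV3 and the root markers WOX5, COBL9, EXPA7, CASP2, MYB36 and SMB had no values.

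The members differed widely in level. Levels are compared per kilobase of the longest transcript, as means of WT at 19 °C in the ZT27 set with their SD (n = 3). ARR4, whose product binds the photoreceptor phytochrome B, was highest at 26.1 ± 1.43, followed by ARR7 at 14.4 ± 2.85. ARR8 at 6.51 ± 0.387, ARR9 at 5.49 ± 0.545 and ARR6 at 4.63 ± 0.259 formed the middle, and ARR5 at 2.17 ± 0.279, ARR15 at 1.64 ± 0.0462 and ARR16 at 0.869 ± 0.04 the lower end. Neighbours in this order differed by more than the sum of their SDs, though ARR8 and ARR9, and ARR9 and ARR6, by little more. The upper 2 genes together held most of the summed family level, ARR4 with 42.3% ± 3.47 and ARR7 with 23.2% ± 3.92.

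**Figure D1:**
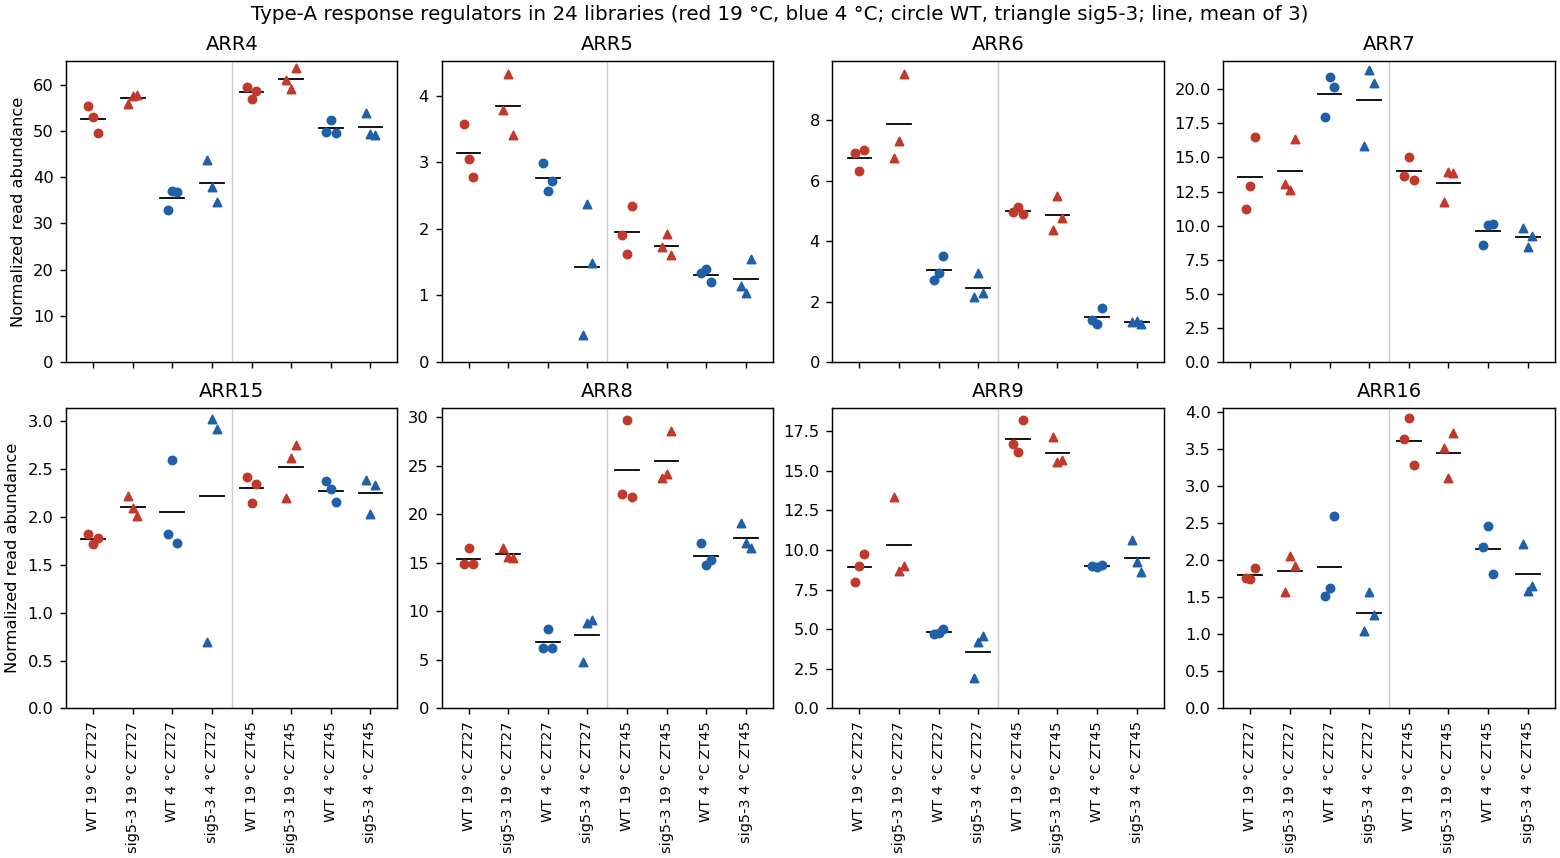
Normalized read abundance (y axis, linear, from 0) of the 8 members in each of the 24 libraries, 1 panel per gene, with the 8 groups along the x axis (circles WT, triangles sig5-3, red 19 °C, blue 4 °C, line the mean of 3). The ARR7 mean is higher at 4 °C than at 19 °C in the ZT27 set and lower in the ZT45 set, while those of ARR6, ARR8 and ARR9 are lower at 4 °C in both.

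The first comparison asked how chilling changed the family in each genotype and time set. Fold changes are log2 differences of log2(value + 0.5), given with the SE of a limma fit to the 24 libraries. The threshold for a pass was an adjusted p under 0.05, adjusted over all genes tested. In WT at ZT27, 1 of the 8 members rose and 4 fell, while 27.6% of all genes rose and 28.9% fell, 56.5% in all. In WT at ZT45, 6 members fell and 0 rose, while 15.5% of all genes fell and 20.2% rose, 35.6% in all. In sig5-3 at ZT27, 1 member rose and 6 fell, while 29.6% of all genes rose and 30.4% fell, 60% in all. In sig5-3 at ZT45, 6 fell and 0 rose, while 17.4% of all genes fell and 17.9% rose, 35.3% in all. The median fold of the 8 members was −0.36 and −0.57 in WT at ZT27 and ZT45, and −0.81 and −0.51 in sig5-3, beside medians of −0.01, 0.03, −0.01 and −0.01 over all genes. At ZT27 in WT the share of members that passed lay near that of all genes.

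ARR6, a nuclear type-A regulator and close relative of ARR5, fell most in WT at ZT45. In the ZT27 set its WT values were 6.92, 6.33 and 7.03 at 19 °C and 2.71, 2.94 and 3.51 at 4 °C. In the ZT45 set they were 4.96, 5.13 and 4.90 at 19 °C and 1.39, 1.26 and 1.79 at 4 °C. Chilled and unchilled libraries did not overlap in either set. The log2 fold change was −1.04 ± 0.13 (limma adjusted p = 2.5e-07) for the ZT27 set and −1.48 ± 0.13 (adjusted p = 2.1e-09) for the ZT45 set, and 1.33% of all genes changed at least as much at ZT45. The sig5-3 values were 6.75, 7.33 and 9.55 at 19 °C and 2.15, 2.95 and 2.28 at 4 °C in the ZT27 set, and 4.35, 5.49 and 4.78 against 1.33, 1.35 and 1.25 in the ZT45 set. They did not overlap either, and the 3 chilled libraries at ZT45 were the most alike. In sig5-3 ARR6 fell by 1.50 ± 0.13 (adjusted p = 4.5e-10) and by 1.57 ± 0.13 (adjusted p = 7.5e-10) in the ZT27 and ZT45 sets. The added 0.5 shrinks these folds, and the plain ratios of group means at 4 °C over 19 °C were 0.451 and 0.296 in WT and 0.312 and 0.269 in sig5-3. ARR6 overlaps AT5G62910, a gene on the opposite strand, over 348 bases, and the strand setting of the counting was not given in the sources used. That neighbour rose by 0.91 ± 0.07 in WT at ZT27 and fell by 0.25 ± 0.07 at ZT45, and the part of shared reads in the ARR6 values was not tested. The ARR6 values were a whole number of estimated reads, within 0.05, in 3 of 24 libraries. Those of ARR5, ARR7, ARR9, ARR15 and ARR16 were whole in all 24, and those of ARR4 in 14. The cause was not tested.

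ARR5, the other gene of that pair and a common cytokinin reporter, had WT values of 3.58, 3.05 and 2.79 at 19 °C and 2.99, 2.57 and 2.72 at 4 °C in the ZT27 set, which overlapped. Its fold change there was −0.15 ± 0.24, with a 95% confidence interval from −0.66 to 0.35, or from −0.44 to 0.14 without the divergent library. In the ZT45 set the WT values were 1.91, 1.63 and 2.34 at 19 °C and 1.34, 1.40 and 1.21 at 4 °C. These groups did not overlap, yet the fold change of −0.43 ± 0.24 did not pass (limma adjusted p = 0.18). In sig5-3 at ZT45 the values were 1.73, 1.92 and 1.60 against 1.14, 1.04 and 1.55, also apart, with a fold change of −0.38 ± 0.24. Without the divergent library, which enters these ZT45 comparisons only through the shared error, ARR5 passed at ZT45 in WT (adjusted p = 0.015) and in sig5-3 (adjusted p = 0.033).

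In sig5-3 at ZT27, ARR5 was at 3.78, 4.33 and 3.41 at 19 °C and at 0.41, 2.37 and 1.49 at 4 °C. The lowest of these, with an estimated 13 reads, was the divergent library. The fold change was −1.32 ± 0.24 (limma adjusted p = 7.2e-05), and without that library −0.86 ± 0.16 (adjusted p = 3.4e-05). ARR5 thus fell in chilled sig5-3 with or without it, by a size that depends on it.

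ARR7, a regulator known from the shoot meristem and from cold response, was the member whose direction turned. In WT its values in the ZT27 set were 11.2, 12.9 and 16.5 at 19 °C and 18.0, 20.9 and 20.2 at 4 °C. In the ZT45 set they were 13.7, 15.1 and 13.3 at 19 °C and 8.59, 10.1 and 10.1 at 4 °C. All chilled libraries lay above the unchilled ones in the first set and below them in the second. The log2 fold change was 0.54 ± 0.13 (limma adjusted p = 0.00085) after 5 h from ZT27 and −0.53 ± 0.13 (adjusted p = 0.0021) after 3 h from ZT45. Of all genes, 25.9% changed at least as much at ZT27 and 12.8% at ZT45.

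The same turn appeared in sig5-3, where ARR7 was at 13.0, 12.6 and 16.4 at 19 °C and 15.9, 21.4 and 20.5 at 4 °C in the ZT27 set. One chilled library, the divergent one, lay below the highest unchilled library there. At ZT45 the sig5-3 values were 11.7, 13.9 and 13.8 at 19 °C and 9.81, 8.44 and 9.22 at 4 °C, which did not overlap. The fold changes were 0.44 ± 0.13 (limma adjusted p = 0.0042) and −0.50 ± 0.13 (adjusted p = 0.0032). With each of the 24 libraries left out in turn, the 4 chilling calls of ARR7 held. In WT the shoot meristem markers STM and KNAT1 summed to 8.99 to 10.5 at 19 °C and 13.0 to 13.8 at 4 °C in the ZT27 set, and to 10.4 to 11.8 and 11.9 to 13.0 in the ZT45 set, and their part in the ARR7 values was not tested.

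ARR15, the closest relative of ARR7, did not share its pattern. Its WT values were 1.82, 1.72 and 1.78 at 19 °C and 1.83, 2.60 and 1.73 at 4 °C in the ZT27 set, and 2.42, 2.14 and 2.34 against 2.37, 2.29 and 2.15 in the ZT45 set. The groups overlapped in both. The fold changes were 0.15 ± 0.25, with a 95% confidence interval from −0.36 to 0.66, and −0.01 ± 0.25, from −0.53 to 0.50. The divergent library enters these WT intervals only through the shared error. Without it they ran from −0.09 to 0.39 and from −0.26 to 0.23. In sig5-3 at ZT27 the chilled values were 0.694, 3.02 and 2.92, the lowest again in the divergent library, against 2.22, 2.09 and 2.01 at 19 °C. With all libraries the fold change was −0.10 ± 0.25 (limma adjusted p = 0.75). Without that library it was 0.41 ± 0.13 (adjusted p = 0.0082), so both its sign and its call rested on 1 library. At ZT45 the sig5-3 values of 2.19, 2.62 and 2.75 at 19 °C and 2.39, 2.03 and 2.34 at 4 °C overlapped, with a fold change of −0.13 ± 0.25.

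ARR8 and ARR9 form the other pair with well-covered transcripts, and ARR9 is known as a clock-controlled member of the family. ARR8 in WT at ZT27 was at 14.9, 16.5 and 14.9 at 19 °C and 6.20, 8.23 and 6.20 at 4 °C. At ZT45 it was at 22.1, 29.8 and 21.8 at 19 °C and 17.0, 14.8 and 15.3 at 4 °C. The chilled libraries lay below the unchilled ones in both sets. ARR8 fell by 1.12 ± 0.16 (limma adjusted p = 5.8e-06) in the first set and by 0.62 ± 0.16 (adjusted p = 0.0055) in the second. In sig5-3 ARR8 was at 16.5, 15.6 and 15.5 at 19 °C and 4.84, 8.85 and 9.10 at 4 °C in the ZT27 set, and at 23.7, 24.2 and 28.6 against 19.1, 17.1 and 16.6 in the ZT45 set. Chilled and unchilled libraries were again apart, with the divergent library lowest. There ARR8 fell by 1.06 ± 0.16 at ZT27, or by 0.79 ± 0.12 without that library, and by 0.52 ± 0.16 (adjusted p = 0.017) at ZT45. That last call was lost without replicate 3 at 19 °C or without replicate 2 or 3 at 4 °C, where the adjusted p reached 0.079.

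ARR9 in WT at ZT27 was at 8.01, 8.96 and 9.77 at 19 °C and 4.68, 4.77 and 5.04 at 4 °C. At ZT45 it was at 16.7, 16.2 and 18.2 at 19 °C and 8.97, 8.94 and 9.04 at 4 °C. The chilled replicates were close together and below every unchilled one, with ratios of the means of 0.542 and 0.528. The log2 fold change was −0.82 ± 0.19 (limma adjusted p = 0.00081) and −0.88 ± 0.19 (adjusted p = 0.00079). The sig5-3 values were 13.3, 8.65 and 9.02 at 19 °C and 1.92, 4.22 and 4.54 at 4 °C in the ZT27 set, and 17.2, 15.6 and 15.7 against 10.7, 9.27 and 8.59 in the ZT45 set. Within each set none of the chilled values reached an unchilled one, and the lowest was in the divergent library. In sig5-3 ARR9 fell by 1.46 ± 0.19 at ZT27, or by 1.12 ± 0.12 without that library, and by 0.74 ± 0.19 at ZT45. ARR8 and ARR9 each overlap a noncoding RNA on the opposite strand for which there are no values. The ARR8 values were a whole number of estimated reads in 1 of 24 libraries and the ARR9 values in 24. The cause was not tested.

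ARR4, the member with the highest deposited values, fell by less but with the smallest error. Its WT values were 55.4, 52.9 and 49.7 at 19 °C and 32.9, 36.9 and 36.8 at 4 °C at ZT27, and 59.5, 56.9 and 58.6 against 49.8, 52.4 and 49.5 at ZT45. The chilled libraries lay below the unchilled ones in both sets. The fold change was −0.56 ± 0.07 (limma adjusted p = 1.5e-07) and −0.21 ± 0.07 (adjusted p = 0.02) in that order. The ZT45 call in WT was lost without replicate 1 or 3 of either temperature, where the adjusted p reached 0.068. In sig5-3 ARR4 was at 55.9, 57.7 and 57.7 at 19 °C and 43.6, 37.9 and 34.6 at 4 °C at ZT27, and at 61.0, 59.1 and 63.6 against 54.0, 49.4 and 49.1 at ZT45, with no overlap. The fold changes there were −0.56 ± 0.07 and −0.27 ± 0.07, and both passed in each fit with 1 library left out.

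ARR16, known from roots and from the stomatal lineage, responded in the ZT45 set. In WT at ZT45 it was at 3.64, 3.92 and 3.29 at 19 °C and at 2.18, 2.47 and 1.81 at 4 °C, with no overlap. At ZT27 the values were 1.76, 1.74 and 1.90 against 1.51, 1.62 and 2.60, which overlapped. The fold change was −0.64 ± 0.15 (limma adjusted p = 0.0021) at ZT45 and 0.04 ± 0.15 at ZT27. In sig5-3 the libraries were apart at ZT45, with 3.51, 3.11 and 3.72 at 19 °C and 2.22, 1.58 and 1.65 at 4 °C. They overlapped at ZT27, with 1.57, 2.06 and 1.92 against 1.04, 1.57 and 1.27. The sig5-3 fold changes were −0.77 ± 0.15 (adjusted p = 0.00031) at ZT45 and −0.40 ± 0.15 (adjusted p = 0.029) at ZT27. The ZT27 call in sig5-3 was lost without replicate 1 or 3 at 4 °C or without replicate 2 or 3 at 19 °C, and was at −0.29 ± 0.16 (adjusted p = 0.12) without the divergent library.

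**Figure D2:**
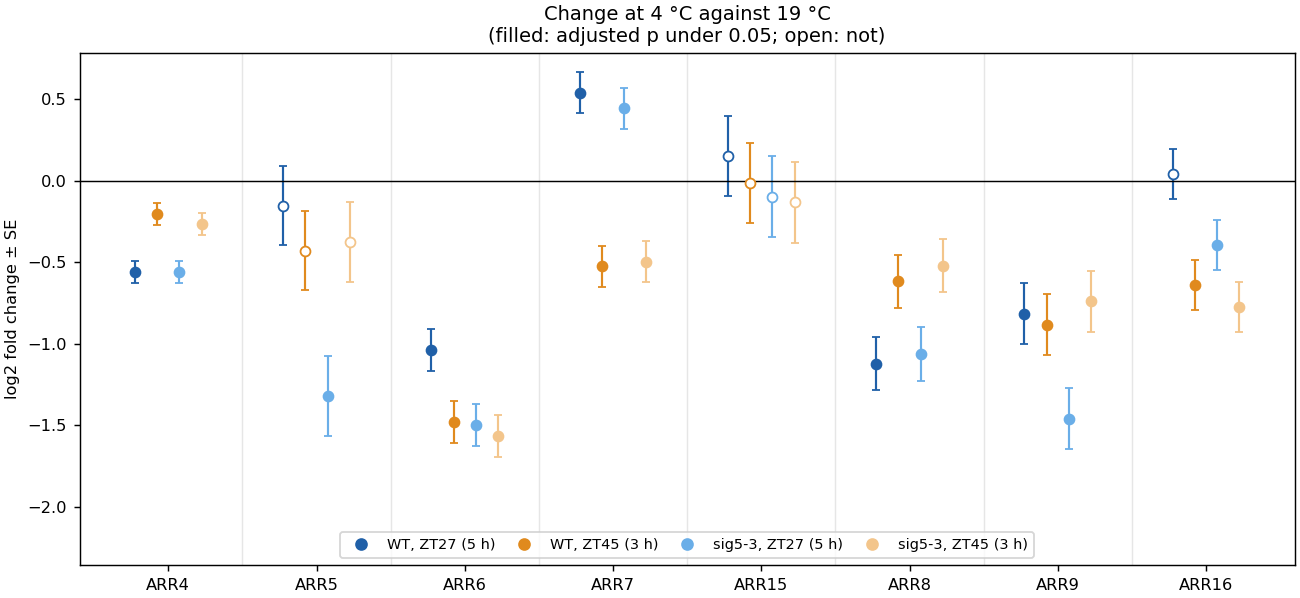
Log2 fold change at 4 °C against 19 °C (y axis, on the log2(value + 0.5) scale) of the 8 members in WT (dark) and sig5-3 (light) in the ZT27 set (blue) and the ZT45 set (orange), as limma estimates with bars of 1 SE, filled where the adjusted p was under 0.05. ARR7 lies above 0 at ZT27, at 0.54 and 0.44, and below 0 at ZT45, at −0.53 and −0.50.

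Chilling also changed the make-up of the family. Summed per kilobase, the 8 members reached 61.8 ± 1.74 (SD, n = 3) at 19 °C and 51.2 ± 3.51 at 4 °C in WT at ZT27, and 73.3 ± 1.70 and 52.5 ± 0.955 at ZT45. ARR7 made up 23.2% ± 3.92 of that sum at 19 °C and 40.8% ± 0.371 at 4 °C at ZT27, but 20.3% ± 0.862 and 19.4% ± 1.56 at ZT45. ARR4 went from 42.3% ± 3.47 to 34.4% ± 0.392 at ZT27, and from 39.5% ± 1.75 to 47.8% ± 0.772 at ZT45. After chilling at ZT27, ARR7 therefore held the largest share in WT, and after chilling at ZT45 ARR4 did. In sig5-3 at 4 °C the ARR7 share was 40.4% ± 2.35 and the ARR4 share 38.7% ± 8.53 at ZT27, a difference within their SDs, and the shares were 18.4% ± 0.689 and 47.7% ± 0.638 at ZT45. These shares carry no test.

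The second comparison set the response in the ZT45 set against that in the ZT27 set, as a difference of the fold changes. In WT, 3 members passed, while 26.3% of all genes did. ARR7 differed by −1.06 ± 0.18 (limma adjusted p = 7.2e-05), a difference that 4.1% of all genes matched in size. ARR16 differed by −0.68 ± 0.22 (adjusted p = 0.022), a call lost without replicate 3 at 4 °C of either set or without replicate 2 at 19 °C in the ZT45 set (adjusted p up to 0.089). ARR4 differed in the other direction, by 0.36 ± 0.10 (adjusted p = 0.0069), since its fall was smaller at ZT45. In sig5-3, 4 members passed, against 29.3% of all genes. There ARR7 differed by −0.94 ± 0.18 (adjusted p = 0.00025) and ARR4 by 0.29 ± 0.10 (adjusted p = 0.023), the latter lost without any 1 of 3 libraries, with adjusted p up to 0.072. These were replicate 3 at 4 °C in the ZT27 set, replicate 2 at 19 °C in the ZT45 set and replicate 1 at 4 °C in the ZT45 set.

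The other 2 sig5-3 calls were less stable. ARR5 differed by 0.94 ± 0.34 (limma adjusted p = 0.043), and leaving out any 1 of 14 libraries ended the call, with 0.48 ± 0.21 (adjusted p = 0.087) without the divergent library. ARR9 differed by 0.72 ± 0.26 (adjusted p = 0.044), and 16 libraries ended its call when left out, with 0.39 ± 0.16 (adjusted p = 0.07) without the divergent one. Without that library ARR15 passed in sig5-3 at −0.55 ± 0.18 (adjusted p = 0.018), and ARR6 and ARR8 passed in WT, at −0.44 ± 0.17 (adjusted p = 0.05 after rounding) and 0.50 ± 0.15 (adjusted p = 0.013). ARR7 held its difference in both genotypes in each fit with 1 library left out.

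Levels also differed between the time sets without chilling. In WT at 19 °C, 3 members were higher in the ZT45 set and 1 was lower, while 19.9% of all genes were higher and 21.5% lower, 41.4% in all. ARR9, ARR16 and ARR8 were higher, by 0.90 ± 0.19, 0.84 ± 0.15 and 0.64 ± 0.16 on the log2 scale (limma adjusted p = 5e-04, 8.9e-05 and 0.0034), and the libraries of the 2 sets did not overlap. ARR6 was lower by this test, at −0.40 ± 0.13 (adjusted p = 0.015). ARR5 was at −0.57 ± 0.24 (adjusted p = 0.066), and ARR7 at 0.06 ± 0.13. Without the divergent library, which is in neither group, ARR5 (adjusted p = 0.0014), ARR4 (0.15 ± 0.05, adjusted p = 0.027) and ARR15 (0.30 ± 0.12, adjusted p = 0.036) passed too, which made 7. In that fit 48.4% of all genes passed. In sig5-3 at 19 °C the same 4 genes and ARR5 passed, 3 higher and 2 lower, where 22.1% of all genes were higher and 20.4% lower, 42.5% in all. ARR5 was at −0.95 ± 0.24 there and ARR6 at −0.63 ± 0.13.

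The sets were compared in the same way at 4 °C. In WT 3 members were higher and 3 lower in the ZT45 set, against 28.3% and 24.1% of all genes, 52.4% in all. In sig5-3, 4 were higher and 2 lower, against 27.1% and 24.3%, 51.4% in all. ARR7 was lower in the chilled ZT45 libraries by 1.00 ± 0.13 in WT (limma adjusted p = 4.2e-07) and by 1.02 ± 0.13 in sig5-3. ARR8 was higher by 1.14 ± 0.16 in WT and 1.21 ± 0.16 in sig5-3, and ARR9 by 0.83 ± 0.19 and 1.37 ± 0.19. With the divergent library left out, the sig5-3 differences were 0.93 ± 0.12 for ARR8 and 1.03 ± 0.12 for ARR9. ARR7 and the ARR8 and ARR9 pair therefore lay on opposite sides in the cold, whereas at 19 °C ARR7 was at 0.06 ± 0.13 in WT and −0.08 ± 0.13 in sig5-3. ARR16 in sig5-3, at 0.37 ± 0.15 (adjusted p = 0.046), lost its call when any 1 of 10 libraries was left out (adjusted p up to 0.23). Without the divergent library, sig5-3 ARR5 and ARR15 passed at −0.47 ± 0.16 and −0.34 ± 0.13 (adjusted p = 0.015 and 0.032). Markers of leaf and root were compared between the sets as well. At 19 °C, 4 of the 5 leaf markers were higher and 1 lower in the ZT45 set in each genotype, with a median difference of 0.86 in WT and 1.04 in sig5-3, and their sum in WT was 35486 to 42964 at ZT27 and 47690 to 50472 at ZT45. At 4 °C, 3 were higher and 1 lower in WT, with a median of 0.41, and 2 were higher and 1 lower in sig5-3, with a median of 0.10. Of the 5 root markers with values, 1 was higher and 1 lower in WT at 19 °C, and 2 were higher and 1 lower in WT at 4 °C, with medians of 0.16 and −0.40. In sig5-3, 2 were higher and 1 lower at each temperature, with medians of −0.28 and −0.36. The summed level of the root markers in WT was 40.8 to 41.7 at ZT27 and 49.7 to 55.6 at ZT45 at 19 °C, and 36.8 to 37.6 and 66.7 to 73.4 at 4 °C, where SCR alone went from 19.0 ± 1.03 (SD, n = 3) to 49.0 ± 4.40. The part of these markers in the family's values was not tested.

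**Figure D3:**
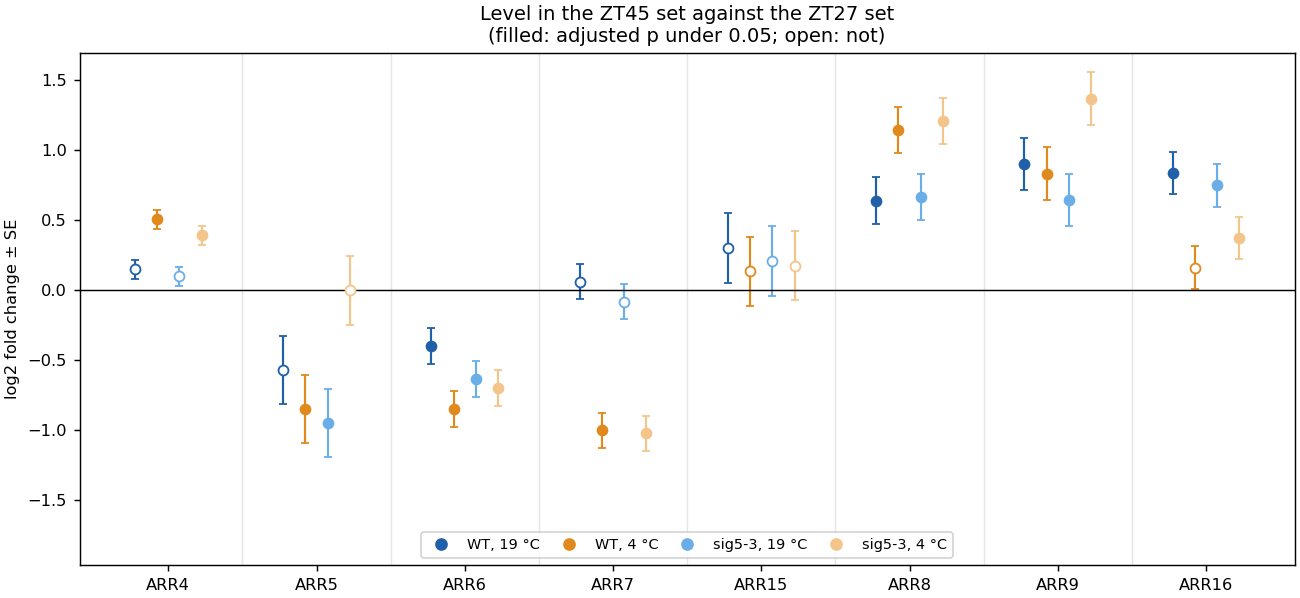
Log2 fold change of the ZT45 set against the ZT27 set (y axis, on the log2(value + 0.5) scale) for the 8 members in WT (dark) and sig5-3 (light) at 19 °C (blue) and at 4 °C (orange), as limma estimates with bars of 1 SE, filled where the adjusted p was under 0.05. ARR8 and ARR9 lie above 0 in all 4 comparisons, ARR6 lies below 0 in all 4, and ARR7 lies near 0 at 19 °C and near −1 at 4 °C.

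The third comparison asked how the family differed between sig5-3 and WT. At 19 °C no member passed in limma at either time, where 0.0111% and 0.039% of all genes did, and no member had an unadjusted p under 0.05. At 4 °C in the ZT45 set no member passed either, against 0.0279% of all genes, again with 0 members at an unadjusted p under 0.05. The interval of the difference was narrowest for ARR4, from −0.13 to 0.15 at 4 °C in the ZT45 set, and wide for ARR15, from −0.53 to 0.50. Without the divergent library, which is in neither of these groups, the ARR15 interval ran from −0.25 to 0.23. The averaged difference over the 4 conditions gave 0 passing members against 6.39% of all genes. In that average 2 members, ARR4 and ARR16, had an unadjusted p under 0.05, as did 3933 of all 17952 genes. The unadjusted numbers over all genes were 1005 and 1729 at 19 °C in the ZT27 and ZT45 sets. At 4 °C in the ZT45 set the number was 579.

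At 4 °C in the ZT27 set, where 2.86% of all genes were lower in sig5-3 and 7.44% passed in all, ARR5 was the 1 member that passed. Its sig5-3 values of 0.41, 2.37 and 1.49 lay below the WT values of 2.99, 2.57 and 2.72. The log2 difference was −0.91 ± 0.24 (limma adjusted p = 0.029). Without the divergent library it was −0.45 ± 0.16 (adjusted p = 0.11), and the call was also lost without any 1 of the 3 WT libraries of that condition, with adjusted p up to 0.12. ARR9 at −0.46 ± 0.19 (adjusted p = 0.12), ARR16 at −0.41 ± 0.15 (adjusted p = 0.093) and ARR6 at −0.27 ± 0.13 (adjusted p = 0.18) had unadjusted p-values under 0.05 and did not pass. Of these, ARR9 passed without replicate 2 or 3 of chilled sig5-3 (adjusted p = 0.044 and 0.028), and ARR16 without replicate 2 (adjusted p = 0.035). With the divergent library left out instead, ARR9 was at −0.13 ± 0.12 (adjusted p = 0.61) and ARR16 at −0.31 ± 0.16 (adjusted p = 0.3). ARR6 was then at −0.19 ± 0.14 (adjusted p = 0.47). With all libraries, 4 members including ARR5 had an unadjusted p under 0.05, as did 4836 of all 17952 genes. Without the divergent library, ARR15 turned from −0.05 ± 0.25 to 0.46 ± 0.13 (adjusted p = 0.057), and ARR8 went from 0.10 ± 0.16 to 0.37 ± 0.12 (adjusted p = 0.087). Leaf markers summed to 54374 to 70049 in the sig5-3 libraries of this condition and 44611 to 48516 in WT, and their part in the difference was not tested.

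The chilling responses of the 2 genotypes were also compared directly. No member passed at ZT27 or at ZT45 by limma, and 0% of all genes did. At an unadjusted p under 0.05 there were 3 members at ZT27, ARR5 at −1.17 ± 0.34 (adjusted p = 0.38), ARR9 at −0.64 ± 0.26 and ARR6 at −0.46 ± 0.18, and 0 at ZT45. Of all 17952 genes, 1782 had an unadjusted p under 0.05 at ZT27 and 647 at ZT45. A fit without trend and robust settings gave 0 passing members at both times. The difference for ARR7 was −0.09 ± 0.18 at ZT27, with a 95% confidence interval from −0.46 to 0.27, and 0.03 ± 0.18 at ZT45, from −0.34 to 0.39. These intervals do not show that the genotypes respond alike. Without replicate 2 of chilled sig5-3 from the ZT27 set, ARR5 passed at −1.53 (adjusted p = 0.017). With the divergent library left out instead, ARR5 was at −0.70 ± 0.21 (adjusted p = 0.34) and did not pass. ARR9 was then at −0.31 ± 0.16 (adjusted p = 0.64) and ARR6 at −0.39 ± 0.18 (adjusted p = 0.61).

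**Figure D4:**
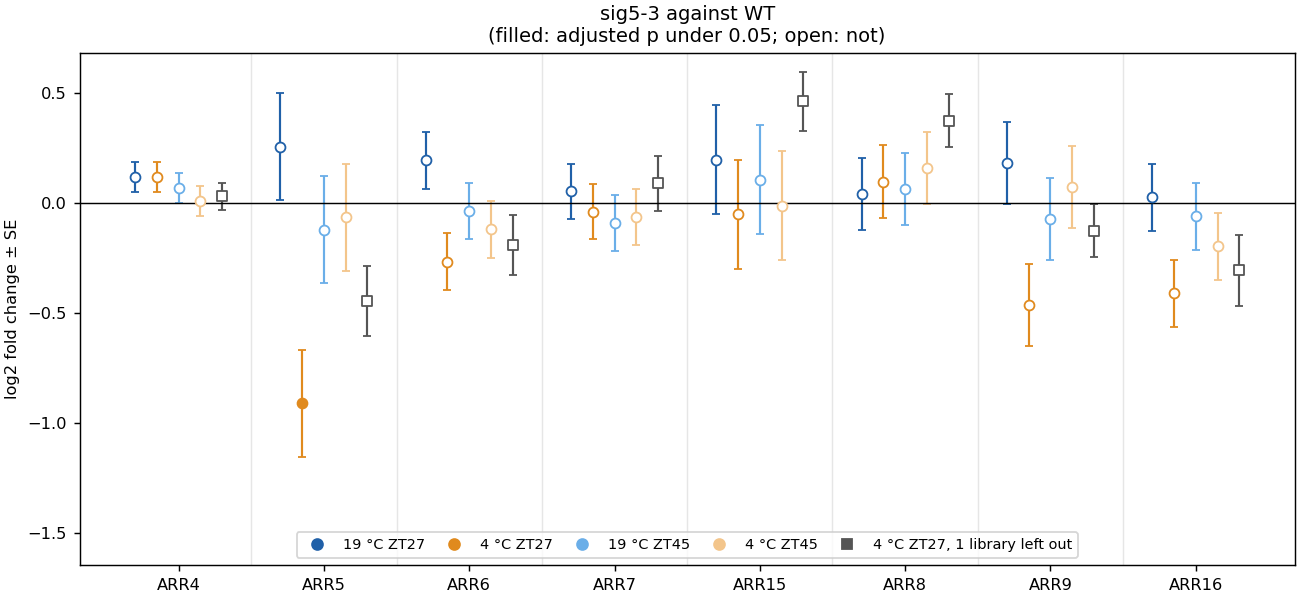
Log2 difference of sig5-3 against WT (y axis, on the log2(value + 0.5) scale) for the 8 members in the 4 conditions, as limma estimates with bars of 1 SE, filled where the adjusted p was under 0.05, while grey squares repeat the 4 °C ZT27 comparison without the divergent library. ARR5 at −0.91 is the one filled point, and its grey square is open at −0.45.

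The remaining cytokinin genes were described from lists by role, and their counts stand beside 28.9% of all genes lower and 27.6% higher in WT at ZT27, and 15.5% lower and 20.2% higher at ZT45. No list was tested against these shares. Among the receptors, 2 of 3 fell in WT at both times, and AHK2 fell from 24.4 ± 1.33 (SD, n = 3) to 10.8 ± 0.354 at ZT27 (−1.14 ± 0.09, limma adjusted p = 6.8e-11) and by 0.39 ± 0.09 at ZT45. Of 5 phosphotransfer proteins with values, AHP4 rose by 0.49 ± 0.15 at ZT27 and none passed at ZT45. Of 6 type-B regulators with values, 5 fell at ZT27 and 2 at ZT45. ARR1, a main activator of type-A genes, went from 27.7 ± 1.83 to 11.5 ± 0.464 at ZT27 (−1.24 ± 0.09) and fell by 0.56 ± 0.09 at ZT45. No receptor and no type-B gene with values rose in WT at either time.

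The KMD genes encode F-box proteins that mark type-B regulators for degradation, and all 3 with values fell at both times. KMD1 fell from 20.7 ± 2.79 to 2.44 ± 0.294 at ZT27 (−2.84 ± 0.18) and from 4.00 ± 1.38 to 0.368 ± 0.0476 at ZT45 (−2.33 ± 0.18). KMD4 fell by 2.99 ± 0.31 at ZT27, and at ZT45 it fell by 3.48 ± 0.31, and KMD2 fell by 1.58 ± 0.17 and by 1.50 ± 0.17. In sig5-3 the 3 genes fell as well, and KMD1 fell by 2.95 ± 0.18 and by 1.65 ± 0.18.

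The cytokinin response factors, AP2-type transcription factors acting beside the type-B regulators, moved in both directions, with 3 of 6 higher and 1 lower in WT at each time. CRF4 rose from 4.31 ± 0.197 to 28.8 ± 1.90 at ZT27 (2.60 ± 0.10) and by 1.19 ± 0.10 at ZT45. CRF3 rose by 2.12 ± 0.14 and by 1.45 ± 0.14, and CRF1 was at −0.27 ± 0.14 at ZT27 and rose by 1.06 ± 0.14 at ZT45. CRF5 fell by 1.19 ± 0.17 and by 0.94 ± 0.17. CRF3 and CRF4 rose in sig5-3 at both times too, with CRF4 at 2.59 ± 0.10 and 1.13 ± 0.10.

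Of 6 cytokinin synthesis genes with values out of 19 listed, 1 rose and 2 fell at ZT27 and 1 fell at ZT45. IPT3, an isopentenyltransferase that starts cytokinin synthesis, fell from 14.1 ± 1.58 to 4.54 ± 0.304 (−1.53 ± 0.09) and by 1.03 ± 0.09 at ZT45. Of 8 genes of breakdown and conjugation with values, 2 rose and 4 fell at ZT27 and 4 fell at ZT45. UGT85A1, which glucosylates zeatin, fell by 1.24 ± 0.14 and by 0.67 ± 0.14. All 3 transport genes fell at ZT27 and 2 at ZT45. The importer PUP14 fell by 0.66 ± 0.12 and by 0.33 ± 0.12, and ENT3 fell by 0.67 ± 0.12 and by 0.32 ± 0.12. The exporter ABCG14 fell by 0.44 ± 0.09 at ZT27 and was at −0.17 ± 0.09 at ZT45. Of 5 other cytokinin-induced genes with values, 1 rose and 1 fell at ZT27 and 1 rose and 2 fell at ZT45, and the expansin gene EXPA1 fell by 2.24 ± 0.07 and by 0.94 ± 0.07.

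**Figure D5:**
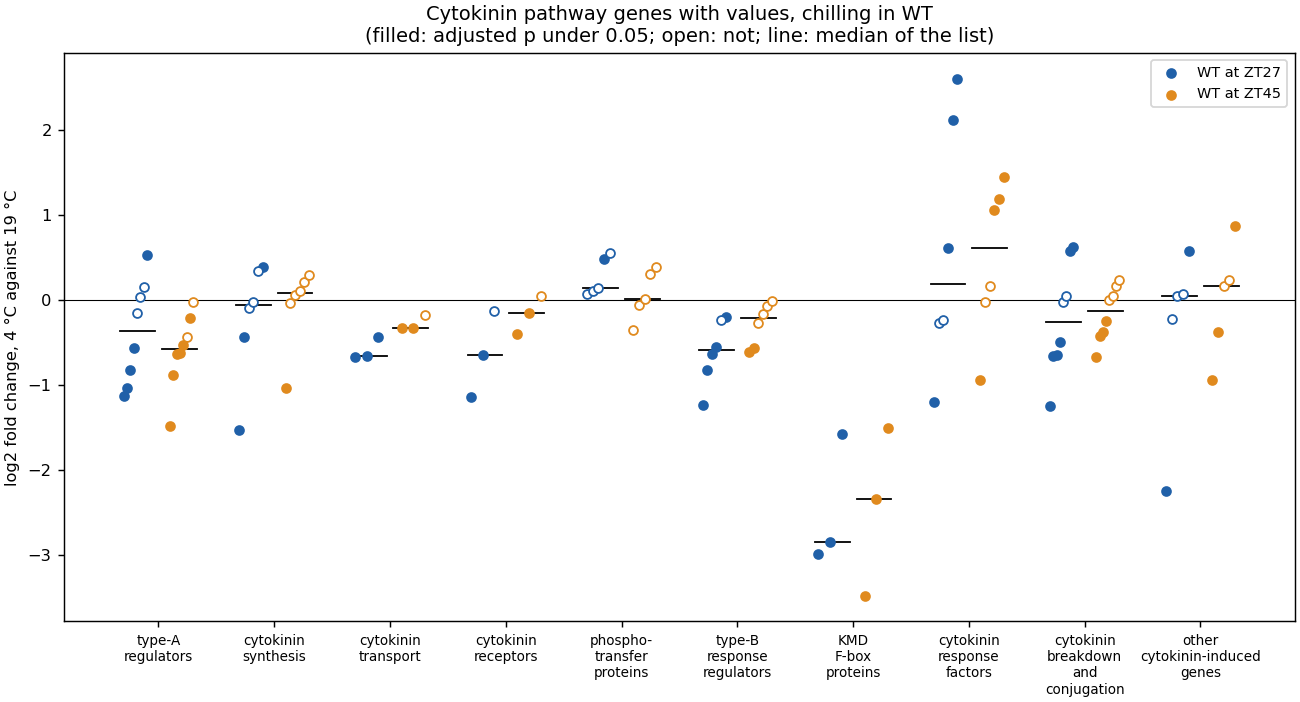
Log2 fold change at 4 °C against 19 °C in WT (y axis, on the log2(value + 0.5) scale) of the cytokinin genes with values, by role with the type-A genes first, at ZT27 in blue and at ZT45 in orange (point, 1 gene, filled where the limma adjusted p was under 0.05; line, median of the list). The 3 KMD genes lie lowest as a list, with medians of −2.84 and −2.33, and CRF4 and CRF3 lie highest at ZT27, at 2.60 and 2.12.

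Within the family the patterns over the 24 libraries were alike in some pairs and not in others. On the log2 scale, Pearson's r was 0.944 for ARR8 with ARR9 and 0.725 for ARR5 with ARR6, but −0.01 for ARR7 with ARR15. ARR4 followed ARR8 (0.870) and ran against ARR7 (−0.57). These values are descriptions over libraries that share groups, so they mix the conditions above with the spread within groups and carry no test. Over the 8 group means r was 0.970 for ARR8 with ARR9, 0.822 for ARR5 with ARR6 and −0.45 for ARR7 with ARR15. For ARR4 it was 0.964 with ARR8 and −0.60 with ARR7. Residual SDs, the spread within groups on the log2 scale after limma's moderation over all genes, were 0.299 for ARR5 and 0.303 for ARR15. ARR4 had 0.083, and the median over all genes was 0.115. These values include the divergent library. Without it the SE of the WT chilling fold change at ZT27 went from 0.24 to 0.14 for ARR5. For ARR15 that SE went from 0.25 to 0.12, and for ARR4 from 0.07 to 0.05.

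The genes whose profiles over the 24 libraries were most like each member were found by the same r among all genes with values. For ARR7 these were AT4G18950 (0.926), AT5G64170 (0.920) and BZS1 (0.904). ARR6 was followed most closely by HBI1 (0.974), AT5G61590 (0.973) and AT1G80870 (0.970), and ARR4 by RKL1 (0.985), RALF23 (0.974) and AT2G01755 (0.973). For ARR5 they were AT3G27770 (0.962), AT5G38290 (0.959) and RRG (0.942). SOT17 (0.975), AT4G18220 (0.973) and AT1G58807 (0.972) were nearest to ARR8. AT5G55640 (0.972), AT1G58807 (0.968) and AT1G59124 (0.965) were nearest to ARR9. AT1G58807 and AT1G59124 belong to a multigene family with near-identical copies, so the split of reads between them is uncertain. ARR15, with AT3G23390 (0.856), AT4G36230 (0.842) and AT1G47820 (0.839), and ARR16, with CYP71B2 (0.866), AT5G16940 (0.863) and NAC2 (0.861), had no gene as close as those of the other members.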

How the data were processed

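Messenger RNA was measured in 24 libraries of Arabidopsis seedlings, 3 in each of 8 groups, per the labels. Reads were trimmed, and aligned to a genome called TAIR11 with STAR 2.4.1d, in Partek 6.6, per the series' design text. The assignment of reads to genes, its strand setting and the scaling were not given in the sources used. Each deposited number is a signal, a normalized abundance per gene, and a scaling within each library was inferred from its steps. Among values under 30, 88.9% to 91.4% per library were whole multiples of a common step within 0.05 steps. The step, taken as 1 read, was 0.0229 to 0.0372, so the limit that a count of 0 allows, 3 reads, was 0.0688 to 0.111, for counting error only. The other values were not multiples, so no count test was run.

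Values were transformed to log2(value + 0.5), which understates changes of low genes. A linear model with 8 group means was fitted to the 24 libraries in limma 3.58.1 (R 4.3.3), with 16 residual degrees of freedom and trend and robust settings, and p-values were adjusted by Benjamini-Hochberg over 17952 genes in each comparison. The fit was tested on simulated data. Genes without values were left out and no other filter was used. Comparisons between 4 °C and 19 °C share their control samples with the comparisons between genotypes and time sets. Names, transcript lengths and promoters came from RefSeq TAIR10.1, in which each of the 17952 genes was found. Alternatives were other pseudocounts, a filter on low means, other scalings, another error model, fits of only the groups compared, a replicate block and leaving out each library.

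All 10 members were to be named, with pathway genes that passed with a log2 fold change of at least 1 in size in WT chilling, or up to 3 that passed where a list had none, and the 3 genes most alike to each member. The members and lists were chosen with earlier results of these data known. Tables and figures were made in Python 3.11.15 (pandas 2.3.3, numpy 2.4.6, matplotlib 3.10.9).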

Additional observations from a re-analysis of the deposited data

Results flagged for a closer look

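The chilling response of some members differed between the time sets in a test of the difference itself, limma's contrast of the ZT45 response minus the ZT27 response. In WT the difference was −1.06 for ARR7, −0.68 for ARR16 and 0.36 for ARR4. In sig5-3 it was −0.94 for ARR7, 0.29 for ARR4, 0.94 for ARR5 and 0.72 for ARR9. ARR7 and ARR4 passed in both genotypes, which used separate seedlings, while 26.3% of all genes passed in WT and 29.3% in sig5-3. Differences at least as large as that of ARR4 were found for 28.5% of all genes in WT and 38.6% in sig5-3. For ARR7 these shares were 4.1% and 6.23%. The ARR16 call in WT and the ARR4 call in sig5-3 were each lost without any 1 of 3 libraries. The ARR5 and ARR9 differences in sig5-3 were 0.48 and 0.39 and did not pass without replicate 1 of chilled sig5-3 from the ZT27 set.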

How the results depend on the processing

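Of 53 member results that passed, 52 kept their call with a pseudocount of 0.1, 51 with 2, 53 with median-of-ratios scaling, 53 without trend and robust settings, 48 with quantile normalization, 47 when the fit held only the groups compared, and 50 with the replicate block, and none turned its sign. With only genes of a mean of at least 5, 4 members were tested and all 33 of their calls held. With that filter the number of members passing was 4 for chilling in sig5-3 at ZT27, 2 for the time sets at 19 °C in WT and 2 in sig5-3. It was 0 for sig5-3 against WT at 4 °C in the ZT27 set. Of the 13859 genes that the filter kept, 8567, 6297, 6326 and 1257 passed in these comparisons, in that order. The filter removed ARR5, ARR6, ARR15 and ARR16, so their calls are not in these numbers. Quantile normalization gave 0 for that genotype comparison and 2 for the time set difference in the chilling response in sig5-3, and the cause was not tested. With this normalization 466 and 5183 of all 17952 genes passed, in that order. With only the groups compared, the numbers were 0 for the same genotype comparison, 5 for the time set difference in WT and 1 in sig5-3, with fewer samples behind each error. Over all 17952 genes, 1, 6035 and 3935 passed in these fits, in that order.

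The replicate numbers did not pair the samples, since correlations of same-numbered deviations ran from −0.32 to 0.186. For ZT45 against ZT27 in sig5-3 at 19 °C all 6 samples correlated best with their own number, and in no other comparison did all 6. The replicate block gave 2 members in place of 4 for the time set difference in sig5-3 and changed no other count by more than 1.5 times. Over all 17952 genes the block gave 5091 for that difference in place of 5252. With each of the 24 libraries left out in turn, 44 of the 53 calls held throughout. The number of members passing ran from 4 to 7 for the time sets in WT at 19 °C, from 0 to 3 for sig5-3 against WT at 4 °C in the ZT27 set, from 0 to 1 for the genotype difference in the ZT27 response, from 2 to 5 for the time set difference in WT and from 1 to 5 in sig5-3. Over all 17952 genes the numbers ran from 6502 to 8681, 10 to 3131, 0 to 121, 4035 to 6013 and 4585 to 5871 in that order.

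Counts over all genes moved most between genotypes. For sig5-3 against WT at 4 °C in the ZT27 set they were 1336 genes, but 466 with quantile normalization, 1 with only the groups compared, and 10 to 3131 with 1 library left out. The other genotype counts were 2, 7 and 5 (19 °C at ZT27, 19 °C at ZT45 and 4 °C at ZT45), with up to 36, 260 and 9 in an alternative, and 1147 for the average, with 582 to 1730. The genotype difference in the ZT27 response gave 0 to 121.

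The low read numbers of ARR5, ARR15 and ARR16 limit what their values can show, and 3 samples a group limit all of them. Scaling moved the median of all genes by less than 0.1.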
